A study of Mus musculus with 41 samples.

Results

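The sites of MLL3/4 on chromatin were compared between cultured mouse keratinocytes without doxycycline (DOX) and cells in which DOX induced dTA-SOX9, a SOX9 without its transactivation domain. MLL3/4 was mapped by CUT&RUN (CNR), in which a nuclease tethered to an antibody releases the DNA around the bound protein for sequencing. The no-DOX list held 33975 peaks and the dTA-SOX9 list 25948, together 59923 of the 328085 peaks in the 18 deposited lists. A no-DOX peak was called kept where a dTA-SOX9 peak overlapped it by at least 1 bp and lost otherwise. A dTA-SOX9 peak without an overlapping no-DOX peak was called gained. By this rule 15045 no-DOX peaks (44.3%) were lost and 18930 kept, while 6766 dTA-SOX9 peaks (26.1%) were gained and 19182 kept.

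MLL3 and MLL4 are histone methyltransferases, encoded by Kmt2c and Kmt2d, that place a single methyl group on lysine 4 of histone H3. This mark is typical of enhancers, stretches of DNA away from gene starts, also within introns, that raise the transcription of genes. SOX9 binds DNA through its HMG domain and directs hair follicle stem cells in skin, whereas epidermal stem cells (EpdSCs) do not express it. The study asked which parts of SOX9 are needed to redistribute MLL3/4, and dTA-SOX9 keeps the DNA-binding domain.

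Both groups came from keratinocytes of the back skin of male CD1 mice. The no-DOX cells carried K14rtTA and TRE-myc-Sox9, the full-length MYC-tagged WT-SOX9, and received no DOX. The treated cells carried K14rtTA and TRE-myc-Sox9noTA, the deleted form, and received DOX at 1 µg/ml for a time that is not given in the sources used here. The SOX9 constructs were brought in by lentivirus and the cells selected with puromycin. In both groups rtTA, the DOX-dependent activator, is driven by the promoter of keratin 14 and so acts in keratinocytes. Each group had 2 samples, and these were pooled by the authors into 1 peak list. The construct and the drug changed together, so their effects cannot be told apart, and with 1 list a group no test between groups was possible. A dTA-SOX9 culture without DOX was not analysed here.

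Each peak has a total signal, the sum of the coverage over its bases, and a maximum. In both lists these are whole-number coverage without scaling to depth, and the depth is unknown. Strength was therefore read as a rank by total signal within a list, given as a decile of the list (10 equal parts, decile 1 the strongest) or as a percentile (100 for the strongest peak, 0 for the weakest). Shares carry a 95% Wilson interval over peaks, which covers counting error and not the spread between cultures.

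Sequences around the maxima show what the classes look like as DNA. The windows span 50 bp on both sides of each maximum's midpoint, on the plus strand of mm10, and were read from the RefSeq copy of GRCm38.p6. Of each class the strongest peak outside promoters whose window held an AP1 word was taken, for kept peaks below a maximum of 200, with the strongest lost promoter window holding an ETS word and the strongest gained window with a SOX word on a dTA-SOX9 site. Capitals mark the word named, which near Terf2 is on the minus strand, and these windows were chosen after their values were seen. The windows of Smad1, Il12rb2 and Met belong to peaks described further on and held none of the AP1, SOX, TEAD and RUNX words.
Lost, intron of Tenm4 (AP1), chr7:96245409-96245509: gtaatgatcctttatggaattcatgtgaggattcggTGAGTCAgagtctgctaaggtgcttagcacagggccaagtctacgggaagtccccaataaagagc
Lost, start of Znhit2 (ETS), chr19:6061125-6061225: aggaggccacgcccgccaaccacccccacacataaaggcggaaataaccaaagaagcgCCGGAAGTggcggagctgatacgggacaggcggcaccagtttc
Lost, intron of Smad1, chr8:79387046-79387146: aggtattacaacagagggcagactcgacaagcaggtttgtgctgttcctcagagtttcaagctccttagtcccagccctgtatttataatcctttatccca
Kept, intron of Frmd4b (AP1), chr6:97293805-97293905: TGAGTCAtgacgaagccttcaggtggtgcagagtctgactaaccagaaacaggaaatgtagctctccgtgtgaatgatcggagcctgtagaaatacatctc
Gained, nearest start Nucb2 (AP1), chr7:116494743-116494843: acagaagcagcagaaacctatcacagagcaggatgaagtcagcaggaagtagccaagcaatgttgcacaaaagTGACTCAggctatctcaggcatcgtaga
Gained, nearest start Terf2 (SOX), chr8:107114472-107114572: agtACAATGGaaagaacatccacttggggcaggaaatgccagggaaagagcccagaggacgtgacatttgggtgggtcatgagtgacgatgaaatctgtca
Gained, intron of Il12rb2, chr6:67351811-67351911: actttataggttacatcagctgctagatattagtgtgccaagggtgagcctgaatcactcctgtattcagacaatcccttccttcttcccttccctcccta
Kept with a higher rank under dTA-SOX9, intron of Met, chr6:17509239-17509339: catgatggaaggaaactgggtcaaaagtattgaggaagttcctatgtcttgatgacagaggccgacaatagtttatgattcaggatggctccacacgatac

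Lost shares were highest among weak peaks. Calls near the threshold of a list drop out first, so the gradient by strength is not read as an effect of dTA-SOX9. Of all no-DOX peaks, 44.3% (43.8 to 44.8) were lost, and of all dTA-SOX9 peaks, 26.1% (25.5 to 26.6) were gained. In the strongest decile of the no-DOX list only 57 of 3397 peaks were lost, 1.68% (1.3 to 2.17). The lost share was 43.3% in the fifth decile and 80.0% (78.6 to 81.3) in the weakest. Gained peaks showed the same gradient, from 24 of 2594 in the strongest decile of the dTA-SOX9 list, 0.925% (0.623 to 1.37), to 53.6% (51.7 to 55.6) in the weakest. The median total signal was 1237 for lost peaks and 2678 for kept no-DOX peaks. Lost peaks were also narrower, with a median width of 260 bp against 337 bp.

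**Figure D1:**
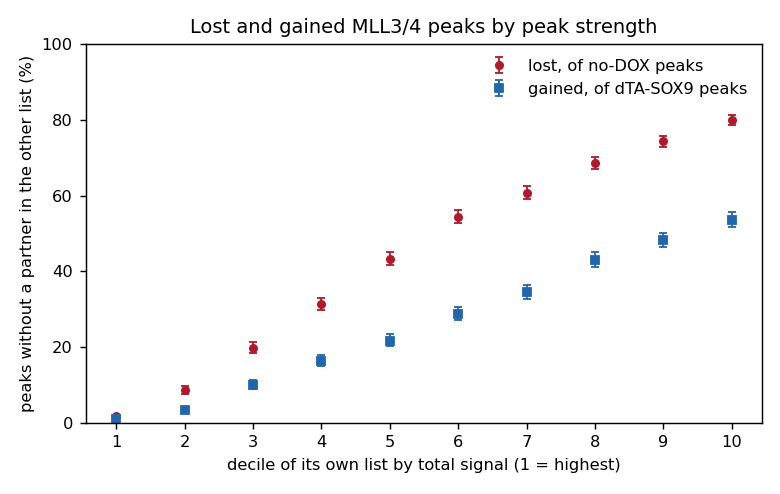
Share of no-DOX MLL3/4 peaks that were lost (circles) and of dTA-SOX9 MLL3/4 peaks that were gained (squares), in %, by decile of the own list by total signal, with 95% Wilson intervals. Lost shares run from 1.68% in the strongest decile to 80.0% in the weakest, and gained shares from 0.925% to 53.6%.

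Few changes lay at peak borders. Only 274 lost peaks, 1.82%, had a dTA-SOX9 peak within 100 bp, and 50.9% had none within 10 kb. The median gap from a lost peak to the nearest dTA-SOX9 peak was 10456 bp. Of the gained peaks, 52.4% had no no-DOX peak within 10 kb. Cutting the no-DOX list to its 25948 strongest peaks lowered the lost share to 34.5% and raised the gained share to 33.3%, so the shares depend on how many peaks each list holds.

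The lists of the other SOX9 forms were set against the same no-DOX list, so the comparisons share their control and are given side by side only. With dHMG-SOX9, which lacks the DNA-binding domain, 43.5% of no-DOX peaks were lost and 16.7% of its 23301 peaks were gained. With WT-SOX9, 82.0% were lost and 41.8% of its 10543 peaks were gained. In the strongest decile of the no-DOX list the lost share was 1.09% with dHMG-SOX9, 1.68% with dTA-SOX9 and 33.7% with WT-SOX9. In the weakest decile it was 81.3%, 80.0% and 95.9% in the same order. In the strongest decile of each treated list the gained share was 0%, 0.925% and 38.0% in the same order. The titles of the WT-SOX9 samples with DOX number them 1 and 2 while their descriptions both name replicate 2, so the make-up of that list is unsure.

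The strength of kept sites was compared in pairs. Of the kept peaks, 18039 formed pairs in which each peak overlapped 1 peak of the other list, and 99.4% of the pairs shared at least 50% of the shorter peak. Their maxima lay a median of 31.0 bp apart. Spearman's rho of total signal was 0.614 across these pairs, which are sites of the same libraries and not replicates, with no value between replicates to set it against. The unscaled total signal was lower with dTA-SOX9 by a median log2 ratio of -0.48, and since depth is unknown this offset has no meaning by itself. Promoter pairs had a median of -0.61, against -0.45 for intronic and for intergenic pairs, and only 19.7% of promoter pairs had the higher value with dTA-SOX9 against 28.3% of intergenic pairs.

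Rank changes were compared among the pairs alone. Within the whole lists the paired peaks stood at a median percentile of 68.1 without DOX and 59.4 with dTA-SOX9, since the lists differ in length and in their share of unpaired peaks. Ranked by total signal among the 18039 pairs, an alternative chosen after the data were seen, 2651 pairs (14.7%) ranked higher with dTA-SOX9 by more than 25 percentile points and 2677 (14.8%) ranked lower. By ranks within the whole lists these counts were 1707 and 3818, and nothing is read from that imbalance. Pairs that ranked higher among the pairs were at promoters in 12.9% of cases (11.6 to 14.2) and on a dTA-SOX9 MYC-tag peak in 43.6% (41.7 to 45.5). Pairs that ranked lower were at promoters in 23.2% (21.6 to 24.8) and on a MYC-tag peak in 21.1% (19.6 to 22.7). For pairs within 25 points these shares were 21% and 36.1%. Both shares also vary with strength. Among kept peaks of the dTA-SOX9 list the MYC-tag share was 70.8% in the strongest decile and 14.1% in the weakest. The promoter share was 16.2% and 23.1%. The pairs were selected by their rank in that list, so no change at MYC-tag sites or promoters is read from these differences.

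**Figure D2:**
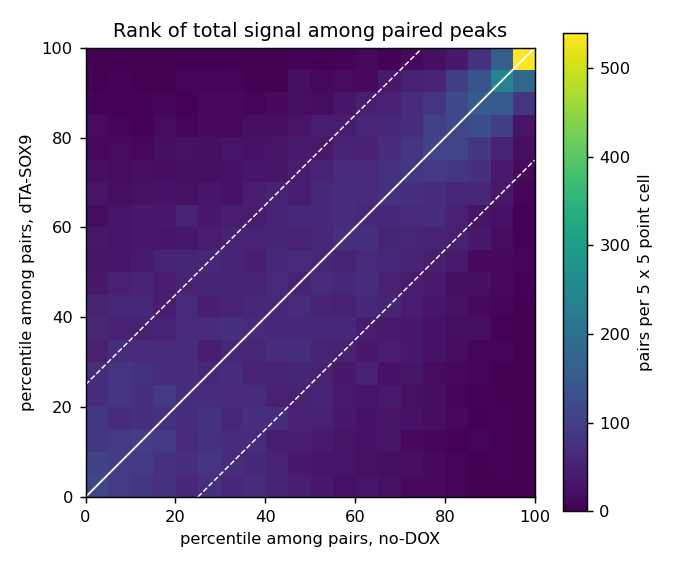
Percentile of total signal among the 18039 paired peaks, without DOX (x axis) and with dTA-SOX9 (y axis). Colour is the number of pairs in each cell of 5 by 5 points, the solid line marks equal rank and the dashed lines a change of 25 points. Strong peaks gather at the upper right, with 2677 pairs below the lower and 2651 above the upper dashed line.

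By percentile within the whole lists, the 3 pairs with the largest gain in rank lay away from gene starts. All 3 were on dTA-SOX9 MYC-tag peaks, as were 70.8% of the kept peaks in the strongest decile of the dTA-SOX9 list. In an intron of Met, the receptor for hepatocyte growth factor, total signal was 856 without DOX and 5735 with dTA-SOX9 (chr6:17509080-17509433), percentiles 0.442 and 94.8. The site was also in the no-DOX list of replicate 1. An intergenic site 30998 bp from the start of Smndc1 had 932 and 10693 (chr19:53420731-53421679), percentiles 8.34 and 99. This site was also in the pooled MYC-tag list without DOX. A site on chromosome 1, 135583 bp from Zfp648, had 903 and 6552.

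The 3 pairs with the largest loss in rank by the same measure were on no dTA-SOX9 MYC-tag peak, against 14.1% of kept peaks in the weakest decile of the dTA-SOX9 list. In an intron of Zbtb7c total signal was 8419 without DOX and 898 with dTA-SOX9, percentiles 94.9 and 3.68. At the start of Trim72 (chr7:128005052-128005635) it was 9192 and 914, and in an intron of Gpr176 6664 and 889. All 3 sites were also in the list of EpdSCs sorted from skin before DOX, as were 74.7% of kept peaks in the strongest no-DOX decile.

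Promoters, the DNA within 1 kb of any annotated start, stood apart in the gained class. They held 22.5% of lost peaks (21.9 to 23.2), 20.1% of kept no-DOX peaks (19.5 to 20.7) and 11.9% of gained peaks (11.2 to 12.7). The difference between lost and kept was 2.43 percentage points (Newcombe interval 1.55 to 3.31). Of promoter peaks 47.1% were lost and 17.5% of those with dTA-SOX9 were gained. Intergenic peaks had a lost share of 42.9% and a gained share of 28.6%.

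The promoter excess among lost peaks depended on strength. In the strongest decile 12.3% of lost peaks (6.08 to 23.2) and 19% of kept peaks (17.7 to 20.3) were at promoters, and lost peaks stayed below kept peaks through the fourth decile. From the fifth decile on they were above, with 21.1% against 14.9% in the weakest. Among gained peaks the promoter share was below that of kept peaks in each of the 10 deciles of the dTA-SOX9 list, for example 13.1% against 23.1% in the weakest.

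**Figure D3:**
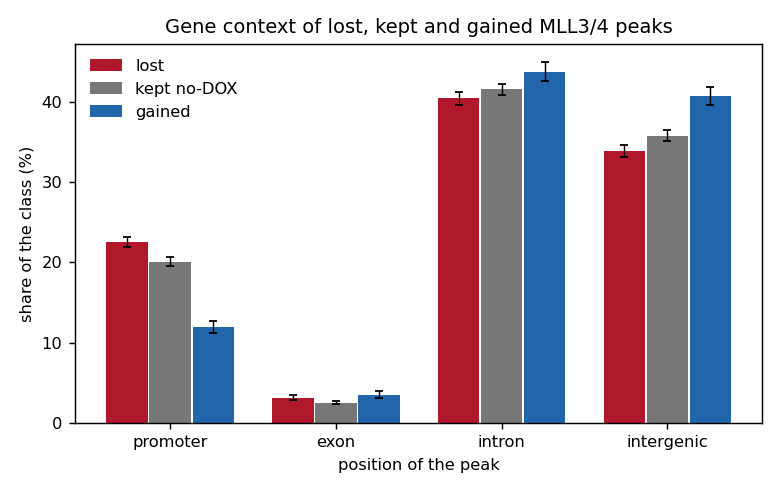
Share of lost, kept no-DOX and gained MLL3/4 peaks (%) at promoters (within 1 kb of a start), exons, introns and intergenic positions, with 95% Wilson intervals. Promoters hold 22.5% of lost, 20.1% of kept and 11.9% of gained peaks, and intergenic positions 33.9%, 35.8% and 40.8%.

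Counted by gene, 5122 of 21938 protein-coding genes had a promoter peak without DOX and 3304 with dTA-SOX9. Of the genes with a no-DOX promoter peak, 2228 (43.5%) had none with dTA-SOX9, and of those with a dTA-SOX9 promoter peak, 410 (12.4%) had none without DOX. Gained peaks also lay farther from genes, at a median of 24357 bp from the nearest start of a protein-coding transcript against 16424 bp for lost peaks. Beyond 100 kb lay 18.9% of gained and 14.4% of lost peaks.

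The MYC tag of dTA-SOX9 was mapped in the same kind of culture, and its list holds 11341 peaks. Kept MLL3/4 sites lay on these peaks far more often than lost sites. The share was 6.28% for lost peaks (5.90 to 6.68), 35.3% for kept no-DOX peaks (34.7 to 36.0) and 20% for gained peaks (19.1 to 21). The same peaks moved by 10 kb overlapped in 0.781%, 1.25% and 0.687%. The pooled no-DOX MYC-tag list overlapped 1.54% of lost, 6.79% of kept and 0.429% of gained peaks.

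The gap between lost and kept peaks was present at every strength. In the strongest decile of the no-DOX list 15.8% of lost peaks (8.54 to 27.4) and 58.7% of kept peaks (57.0 to 60.3) lay on a dTA-SOX9 MYC-tag peak. In the weakest decile the shares were 4.41% (3.70 to 5.25) and 20.8% (17.9 to 24.0). Gained peaks are set against kept peaks of the same decile of the dTA-SOX9 list, with 48.8% against 41.1% in the third decile, 27.0% against 26.6% in the fifth and 11.3% against 14.1% in the weakest. Among gained peaks above a total signal of 1800, in lists cut at that value, the share on MYC-tag peaks was 43.5%.

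**Figure D4:**
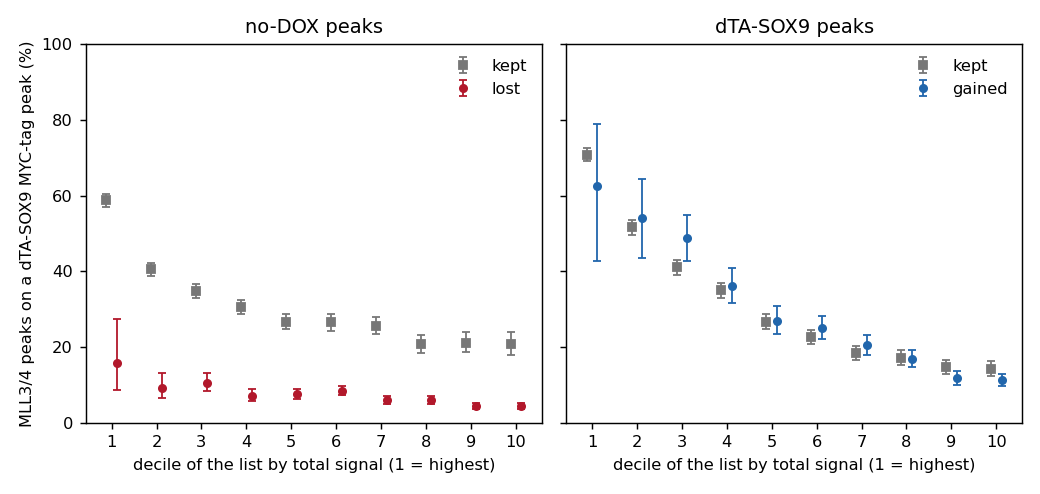
Share of MLL3/4 peaks (%) that overlap a dTA-SOX9 MYC-tag peak, by decile of the list by total signal, with 95% Wilson intervals. In the no-DOX list (left) kept peaks lie above lost peaks in all deciles, from 58.7% against 15.8% to 20.8% against 4.41%, whereas gained and kept peaks of the dTA-SOX9 list (right) lie close together, with 27.0% and 26.6% in the fifth decile.

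Read from the side of dTA-SOX9, most of its sites carried MLL3/4 in both states. Of the 11341 MYC-tag peaks, 59.8% (58.9 to 60.7) overlapped MLL3/4 peaks in both lists, 12.1% (11.5 to 12.7) only with dTA-SOX9, 8.47% (7.98 to 9) only without DOX and 19.6% (18.9 to 20.3) in neither. MYC-tag and MLL3/4 lists with dTA-SOX9 come from cells of 1 construct, and the part of shared culture conditions in these overlaps was not tested.

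The no-DOX list of replicate 1 alone held 87.1% of lost peaks, 97.7% of kept peaks and 20% (19.1 to 21) of gained peaks. All 57 lost peaks of the strongest decile were in it. Of the 24 gained peaks of the strongest decile of the dTA-SOX9 list, 45.8% (27.9 to 64.9) overlapped a peak of that replicate, so part of the gained class was called in 1 no-DOX sample. With this list in place of the pooled one the lost share was 49.2% and the gained share 22.6%.

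In EpdSCs sorted from mouse skin before DOX, MLL3/4 peaks overlapped 37.8% of lost, 50.1% of kept no-DOX and 13.8% of gained peaks. At equal strength the order of lost and kept was the opposite in most deciles. Lost peaks were below kept peaks in the strongest decile, 71.9% against 74.7%, and in the second, 61.3% against 62.2%, with overlapping intervals. In the other 8 deciles lost peaks were above, for example 59.8% against 54.0% in the third, 42.9% (40.6 to 45.2) against 35.2% (32.9 to 37.7) in the sixth and 30.9% against 23.8% in the ninth. The intervals also overlapped in the fourth, the seventh and the weakest decile, there with 25.9% (24.2 to 27.5) against 24.2% (21.1 to 27.5). Gained peaks stayed below kept peaks of the same list in each decile, for example 13.3% against 46.0% in the fifth. SOX9 peaks of EpdSCs after 1 week of induction in skin overlapped 18.1% of lost, 30.3% of kept and 6.77% of gained peaks.

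Short words of transcription factors were counted on both strands of the windows, against windows 1 kb to either side, which give the share for DNA of the same length nearby. AP1, formed by FOS and JUN proteins, binds TGACTCA or TGAGTCA. An AP1 word stood in 19.4% of lost windows (18.7 to 20), 25.4% of kept windows (24.8 to 26.1) and 24.8% of gained windows (23.8 to 25.9). The nearby windows held it in 2.02%, 2.07% and 2.17%. Outside promoters the lost share was below the kept share in each decile, from 8% against 24.6% in the strongest to 20.5% against 26% in the weakest. The window in the intron of Tenm4 printed above is the strongest lost example and that in Frmd4b the strongest kept one below a maximum of 200. The gained example near Nucb2 was also in the no-DOX list of replicate 1.

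The SOX words searched were CCATTGT with its variant CCTTTGT, and also GCATTGT with its variant GCTTTGT. They stood in similar shares of the classes, 6.83% of lost (6.43 to 7.24), 6.49% of kept (6.15 to 6.85) and 6.46% of gained windows (5.90 to 7.07), against 6.35%, 6.14% and 6.19% nearby. Among gained peaks they were unevenly spread. The 1356 gained peaks on a dTA-SOX9 MYC-tag peak held a SOX word in 10.3% (8.82 to 12.1), as in the window near Terf2, a site that EpdSCs before DOX also had, and the other 5410 in 5.49% (4.91 to 6.13). A word is a match of letters and not a site of binding.

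The GC box GGGCGG, bound by SP and KLF factors, stood in 7.80% of lost, 5.65% of kept and 2.57% of gained windows, against 2.25%, 2.01% and 1.64% nearby. The ETS word CCGGAAGT stood in 2.75% of lost promoter windows (2.25 to 3.35) and 1.08% of kept promoter windows (0.796 to 1.46), as at the start of Znhit2, and in 1.36% of gained promoter windows, close to the 1.31% of kept dTA-SOX9 promoter windows. It stood in 0.126% and 0.100% of windows near lost and kept peaks of all contexts. The word ACATTCC of TEAD factors, the partners of YAP, stood in 3.34% of lost, 4.03% of kept and 4.08% of gained windows, against 1.45%, 1.42% and 1.49% nearby. The RUNX word AACCACA stood in 3.13%, 3.90% and 5.26% (4.75 to 5.82 for gained), against 2.44%, 2.37% and 2.32%. The GATA words AGATAAC and AGATAAG stood in 2.31%, 2.74% and 2.87% against 2.47%, 2.25% and 2.39%.

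Of the remaining words, the AP2 word GCCNNNGGC stood in 4.97% of lost, 4.14% of kept and 2.70% of gained windows, against 2.26%, 2.13% and 1.73% nearby. The NFY word CCAATCAG stood in 1.09%, 1.22% and 0.636%, against 0.349%, 0.359% and 0.436%. The long TP63 word was rare, with 37 lost windows (0.246%), 28 kept (0.148%) and 4 gained (0.0591%), against 0.00997%, 0.0185% and 0% nearby. The CTCF word stood in 72 lost (0.479%), 36 kept (0.190%) and 22 gained windows (0.325%), against 0.279%, 0.259% and 0.207% nearby.

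The 5 lost peaks with the highest total signal had ranks from 1079 to 1528 in the no-DOX list. The first, in the gene body of Hal, which encodes histidine ammonia-lyase (chr10:93496301-93496872), had a total signal of 10379. An intronic peak of Smad1, a transducer of BMP signals, had 9118 (chr8:79386542-79387181). The others lay in an intron of Ccdc148 with 9673, 24095 bp from the start of Calml3 with 9082 and 65182 bp from Mbnl1 with 8950. All 5 overlapped peaks of EpdSCs before DOX and of no-DOX replicate 1, which is part of the pooled list. None lay on a dTA-SOX9 MYC-tag peak. All 5 were also in the dHMG-SOX9 list, and all but the one near Mbnl1 in the WT-SOX9 list. Those lists lacked 1.09% and 33.7% of the strongest no-DOX decile. Of all 57 lost peaks of the strongest decile, 71.9% overlapped the list of EpdSCs before DOX and 15.8% a dTA-SOX9 MYC-tag peak.

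The highest gained peak, 137233 bp from the start of Emp1 (chr6:135504441-135505005), had a total signal of 8526 and rank 450 in the dTA-SOX9 list. The next lay 27058 bp from Has2, a hyaluronan synthase gene (chr15:56721133-56721840), with 8090. Peaks near Gp9 with 7279 and in introns of Il12rb2 with 5719 and Slc9a4 with 5701 followed. Of these 5 peaks, 4 lay on dTA-SOX9 MYC-tag peaks, where 62.5% of gained (42.7 to 78.8) and 70.8% of kept peaks (69.0 to 72.5) of the strongest decile of that list lay, and none on peaks of the WT-SOX9 MYC-tag list, which overlapped 1.86% of all gained peaks, or of EpdSCs before DOX, which overlapped 13.8%. The Il12rb2 site was in the no-DOX list of replicate 1. The sites of Gp9, Il12rb2 and Slc9a4 also had a peak in the dHMG-SOX9 list. The share of all gained peaks in that list was not counted.

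The 5 strongest kept peaks were 2 neighbouring peaks on chromosome 2 with maxima of 5387 and 1015, whose windows were repeat-masked over all and over 94 of their bases, a peak on chromosome 17 beside the 18S ribosomal RNA copy Rn18s-rs5, one on chromosome 9, 37588 bp from the start of Rpusd4, with a maximum of 1710, and one in an intron of Chl1 with a maximum of 1499. These sites were in every list examined for them, the pooled MYC-tag list without DOX included. Leaving out all peaks with a maximum of 200 or more, an alternative chosen after the data were seen, left 33963 and 25938 peaks and a lost share of 44.3%. Below that maximum, strong kept peaks included an intronic site of Frmd4b with 52166 (chr6:97293515-97295042) and one 18122 bp from Vgll4 with 51731.

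Peaks were also counted by the gene with the nearest start. The genes with the most lost peaks were genes with many peaks, and their counts are to be read against the 44.3% lost and 26.1% gained among all peaks. Foxp1, a forkhead repressor, had 52 no-DOX peaks, of which 26 were kept and 26 lost, with 10 gained. Myc had 53, with 23 lost and 8 gained, and Sox9 55, with 18 lost and 5 gained. Tbl1xr1 had 34, with 18 lost and 8 gained, and Svil had 33, with 16 lost and 2 gained. Gata3, a regulator of epidermal differentiation, had 34, with 16 lost and 5 gained.

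Gained peaks were most numerous at Zfp608, with 16 of 40 dTA-SOX9 peaks, and at Sema6d, a semaphorin gene, with 11. Sema6d had only 3 no-DOX peaks but 13 with dTA-SOX9. Tnfaip3, an inhibitor of NF-kB signalling, and Jag1, a Notch ligand, had 10 gained peaks each and Dusp10 had 9. Kept peaks were most frequent at Sfi1 (51 of 60), Sox9 (37 of 55), Myc (30 of 53), Klf6 (30 of 39), Nedd4l (28 of 38) and Foxp1.

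Of 2153 genes with 5 or more no-DOX peaks, 10 lost all and 73 kept all. At the 44.3% lost among all peaks, few genes with so many peaks would lose or keep all. These counts are therefore not read as a result about genes. Genes that lost all included March8, with 8 peaks, and Bcl9l, a coactivator of beta-catenin, with 7, neither of which had a gained peak. Ldhal6b, Mgme1 and Pcdh17 had 5 lost peaks each, and of these Pcdh17 had a gained one. Over all 10184 genes with a no-DOX peak, 2992 kept every peak.

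Sites at 219 genes were then read by function, as peaks in the gene and 50 kb to each side. Of 17 lists, 14 had a lost share whose interval held the 44.3% of all peaks, and 14 a gained share whose interval held 26.1%. The exceptions for lost peaks were the hemidesmosome and desmosome lists below and the hair follicle list above, and for gained peaks the epidermal transcription factor, desmosome and AP1 lists, all below. Lists differed in peak strength, so each is also set against the share among all peaks of the same deciles. Against those shares the interval of lost peaks held the value for 16 of 17 lists, the exception being the epithelial-mesenchymal transition list, below. For gained peaks it did so for 14, with the epidermal transcription factor, AP1 and TGF-beta and BMP lists below and none above. These intervals are not adjusted for the number of lists.

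Genes with a promoter peak were also counted by list, beside the 5122 without DOX and 3304 with dTA-SOX9 among all protein-coding genes. The counts were equal in 4 of the lists that are not markers of other cells, with 8 and 8 hemidesmosome, 4 and 4 epithelial-mesenchymal transition, 2 and 2 EGF and 2 and 2 YAP and TEAD genes. Of these genes 7, 4, 1 and 0 in the same order had a promoter peak in both lists, so the YAP and TEAD genes were Wwtr1 and Tead3 without DOX and Yap1 and Amotl2 with dTA-SOX9. They went from 10 without DOX to 9 with dTA-SOX9 in the TGF-beta and BMP list, from 10 to 7 in the desmosome and in the housekeeping list, from 9 to 6 in the keratin list and from 8 to 6 in the AP1 list. In the epidermal transcription factor list they went from 12 to 7, in the hair follicle list from 9 to 3, in the Notch list from 4 to 1 and in the MLL3/4 complex list from 3 to 1.

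Adhesion genes, which hold epidermal cells to each other and to the basement membrane, lost fewer peaks than the 44.3% of all, at shares whose intervals held those of equally strong peaks. At hemidesmosome and basement membrane genes 52 of 161 peaks were lost, 32.3% (25.6 to 39.9), against 38.9% for all peaks of the same deciles. Itgb4 kept 12 of 14, Itga3 9 of 10, Col17a1 11 of 14 and the laminin gene Lama3 22 of 29. Of their dTA-SOX9 peaks 28 of 137 were gained, 20.4% (14.5 to 28.0), against 23.1% for their deciles. At desmosome and cornified envelope genes 55 of 162 were lost, 34.0% (27.1 to 41.5), against 35.5% for their deciles. Dsg3 kept 13 of 16 and Sprr1b 14 of 16, and Ppl, which encodes periplakin, lost 5 of 6. Of the dTA-SOX9 peaks 18 of 127 were gained, 14.2% (9.16 to 21.3), against 21% for their deciles.

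Epidermal transcription factor genes lost 60 of 138 peaks, 43.5% (35.5 to 51.8), against 41.0% for their deciles, and had few gained peaks, 11 of 92, 12% (6.81 to 20.2), against 20.7% for all peaks of the same deciles. Trp63, the master regulator of the epidermis, kept 9 of 12 peaks. Its strongest no-DOX peak (chr16:25779981-25780378) had a total signal of 7173 at percentile 92.8, and its partner 4717 at percentile 91.8 with dTA-SOX9. Grhl2 kept 13 of 20, Ovol2 lost 5 of 6 and Klf5 lost its single peak, at the promoter. Gata3 had 3 peaks within 50 kb, and the one lost was at the promoter, with a total signal of 943 and percentile 9.42.

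Keratin genes lost 37 of 75 peaks, 49.3% (38.3 to 60.4), against 39.1% for their deciles. Krt14 kept 7 of 12 and Krt17 14 of 17, while Krt80 lost 8 of 15, and 11 of 50 dTA-SOX9 peaks were gained, 22.0% (12.8 to 35.2), against 20.9%. The peak at the Krt14 start (chr11:100207452-100207935) had a total signal of 3373 at percentile 76.7 without DOX and 3637 at percentile 86.4 with dTA-SOX9. The strongest peak within 50 kb of Krt14 lay at the start of the neighbouring Krt16 (chr11:100248964-100249494), with 8707 at percentile 95.2 and 6040 at percentile 95.5. Neighbouring keratin genes share peaks, and each peak was counted once in the list.

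The AP1 genes lost 59 of 118 peaks, 50.0% (41.1 to 58.9), against 45.0% for their deciles, and 9 of 68 were gained, 13.2% (7.12 to 23.3), against 24.4%. Fosl1 lost 10 of 16 and gained none, Jun lost 5 of 6 and Atf3 kept 11 of 17. Genes of the EGF receptor and its ligands lost 33 of 91, 36.3% (27.1 to 46.5), below the share of all peaks but above the 32.3% of their deciles, which the interval held, and 11 of 69 were gained, 15.9% (9.14 to 26.3), against 21.7%. Egfr kept 12 of 18, with its strongest peak (chr11:16800498-16801046) at 13931 and percentile 98.5 without DOX and at 3566 and percentile 85.9 with dTA-SOX9. In intergenic DNA within 50 kb of Areg, which encodes amphiregulin, a kept site (chr5:91123473-91123786) stood at 2881 and percentile 71.4 without DOX and at 7513 and percentile 97.4 with dTA-SOX9, on a MYC-tag peak.

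Of the signalling lists, Notch pathway genes lost 54 of 108 peaks, 50.0% (40.7 to 59.3), against 43.6% for their deciles. Jag2 lost all 4 and Dll1 lost 4 of 5, and Maml2 gained 6. TGF-beta and BMP genes lost 49 of 117, 41.9% (33.3 to 50.9), against 44.1%, with Tgfbr3 losing 8 of 10 and Bmp7 none of 4. YAP and TEAD genes lost 43 of 94, 45.7% (36.0 to 55.8), against 43.2%. Yap1 lost 6 of 7 and gained a peak at its promoter (chr9:8003354-8003605) with a total signal of 1108 at percentile 23.9. The strongest peak within 50 kb, outside the gene (chr9:7900964-7901309), had a total signal of 6459 without DOX and 1541 with dTA-SOX9, percentiles 91.2 and 48.8. The Yap1 relative Wwtr1, which encodes TAZ, kept 18 of 23. Gained peaks were 17 of 70 in the Notch list, 24.3% against 23.5% for its deciles, and 18 of 70 in the YAP and TEAD list, 25.7% against 28.3%. In the TGF-beta and BMP list they were 15 of 83, 18.1% (11.3 to 27.7), against 28.0%.

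Hair follicle stem cell genes lost 76 of 143 peaks, 53.1% (45.0 to 61.1), the one list whose interval lay above the share of all peaks, though it held the 46.1% of their deciles. Of these peaks 21 of 91 with dTA-SOX9 were gained, 23.1% (15.6 to 32.7), against 30.6%. With dHMG-SOX9 and with WT-SOX9, against the same no-DOX list, the lost shares were 47.6% and 80.4% and the gained shares 14.6% and 50.0%. Their intervals held the shares over all peaks, 43.5% and 82.0% lost and 16.7% and 41.8% gained. Sox6 lost 7 of 9 and gained none with dTA-SOX9, and had 9 gained with WT-SOX9. Nfatc1 lost 5 of 6 and Tcf7l1 9 of 14. Lhx2, without a no-DOX peak, had 2 with dTA-SOX9, and Runx1 kept 6 of 10 with 3 gained. The 3 peaks at Sox9 itself, all kept, follow its coding exons as described further on.

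Genes of the epithelial-mesenchymal transition lost 18 of 55 no-DOX peaks, 32.7% (21.8 to 45.9), against 46.0% for their deciles, a value just outside the interval. Of 56 dTA-SOX9 peaks 20 were gained, 35.7% (24.5 to 48.8), an interval that held both the 25% of their deciles and the 26.1% of all peaks. Zeb1, a repressor of epithelial genes, had no peak without DOX and 4 with dTA-SOX9, Zeb2 had 3 gained and Mmp9, a matrix protease gene, 3 gained beside 1 kept. Of the epithelial members, Cdh1, which encodes E-cadherin, kept 16 of 18 and the splicing factor gene Esrp1 lost 8 of 11. With dHMG-SOX9 4 of 42 peaks were gained at these genes (3.77 to 22.1%) and with WT-SOX9 9 of 19 (27.3 to 68.3%), intervals that held the 16.7% and 41.8% of all peaks of those lists.

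The MLL3/4 complex genes lost 17 of 34 peaks, 50.0% (34.1 to 65.9), with Kmt2c losing 2 of 3 and Kmt2d 1 of 4, and 7 of 24 were gained, 29.2% (14.9 to 49.2). For their deciles the shares were 50.1% lost and 21.6% gained. Housekeeping genes lost 34 of 83, 41.0% (31.0 to 51.7), against 42.5%, and 13 of 63 were gained, 20.6% (12.5 to 32.2), against 31.5%.

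**Figure D5:**
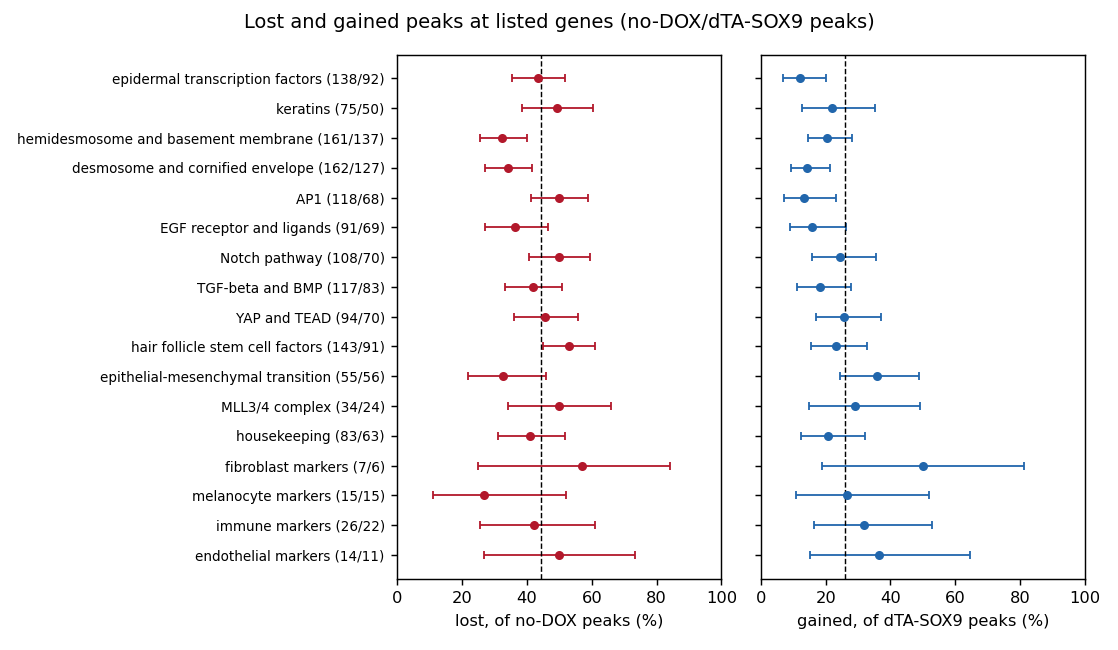
Lost share of no-DOX peaks (left) and gained share of dTA-SOX9 peaks (right), in %, at the genes of 17 lists with 50 kb to each side, with 95% Wilson intervals and the number of no-DOX and dTA-SOX9 peaks after each name. Dashed lines mark the shares of all peaks, 44.3% and 26.1%. Lost shares range from 26.7% at melanocyte markers to 57.1% at fibroblast markers, the latter from 7 peaks.

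The keratinocyte label was checked on peaks at marker genes. Promoters of Krt5, Krt14, Col17a1 and Sfn carried MLL3/4 in both lists. Itga6 had a peak at an annotated start inside the gene with dTA-SOX9 only (chr2:71837869-71838109) and none at its other starts. The starts of Itgb4 and Trp63 had none in either list, and Trp63 held 8 peaks in the gene in each list. Perp had a promoter peak without DOX only. Of 25 markers of fibroblasts, melanocytes, immune and endothelial cells, 2 had a promoter peak without DOX, Csf1r and Pecam1, and 1 with dTA-SOX9, Csf1r. The promoters of Col1a1, Pdgfra, Dct, Tyr, Ptprc, Cd3e and Cdh5 had none in either list. Within 50 kb of these genes lay 7 no-DOX and 6 dTA-SOX9 peaks at fibroblast, 15 and 15 at melanocyte, 26 and 22 at immune and 14 and 11 at endothelial markers. The part of other cells in the lost and gained classes was not tested.

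Peaks inside Sox9 itself followed its coding exons. In the no-DOX list the first ran from 112782586 to 112783047 on chromosome 11, where coding exon 1 spans 112782585 to 112783015, and in the dTA-SOX9 list from 112782584 to 112783016. The second ran from 112783810 to 112784065 in both, at coding exon 2, which spans 112783809 to 112784062. Total signal in exon 1 was 24363 without DOX and 17096 with dTA-SOX9, and in exon 3 it was 7669 and 2841, with maxima of 18 and 9. The transactivation domain is encoded by the last exon. The MYC-tag list of dTA-SOX9 had peaks in exons 1 and 2 only, while the other MYC-tag lists of cultured cells, 3 pooled and 1 of no-DOX replicate 1, had peaks in all 3 exons. The transgene carries these exons without introns, so reads from it and from the gene itself cannot be told apart.

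Across chromosomes the lost share ranged from 39.6% on chromosome 19 to 48.2% on chromosome 4, with chromosome X apart at 53.8% (49.9 to 57.6). The dTA-SOX9 list had 0.582 times as many peaks on X as the no-DOX list and 0.693 to 0.838 times on the autosomes. In the 289 pairs on X the median log2 ratio of total signal was -0.59, against -0.57 to -0.40 on the autosomes. Whether the cultures differed in their chromosomes was not tested.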

How the data were processed

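MLL3/4 CUT&RUN of 2 no-DOX samples and 2 dTA-SOX9 samples was compared, from a series of 41 samples. Per the study's methods and processing notes, the authors used Skewer for trimming, Bowtie2 2.2.9 for alignment to mm10, Picard for duplicates and SAMtools 1.3.1, took only fragments up to 120 bp, combined replicates, made coverage with deepTools 3.1.2 and called peaks with SEACR (stringent, 0.01). The deposited signal in the pooled MLL3/4 lists is unscaled whole-number coverage, although the authors described RPKM. The no-DOX replicate 1 list and the MYC-tag lists hold signal scaled by the authors, and signals were never compared between scales. Depth is unknown.

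Peaks were overlapped, annotated (GENCODE vM21, mm10 as GRCm38.p6) and counted in Python 3.11.15 with pandas 2.3.3, numpy 2.4.6, scipy 1.17.1 and pysam 0.24.0, and plotted with matplotlib 3.10.9. Mitochondrial peaks, 3 in each list, were left out. Coordinates count from 1. Wilson intervals were used for shares and Newcombe intervals for differences. Alternatives changed the overlap rule, strength filter, list length, merging, replicate, start set and windows. Counting was tested on simulated data. Named were the 5 strongest peaks of each class, the 3 largest rank changes each way, the 6 genes leading each count by nearest start, 1 of them not reported here, and examples of the gene lists. Members and lists were chosen with earlier results of these data known.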

Additional observations from a re-analysis of the deposited data

How the results depend on the processing

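No paired analysis was possible because the pooled lists carry no replicates. Over the main shares of lost and gained peaks, the promoter difference and the MYC-tag share, 43 values were recomputed. Of these, 24 stayed inside the counting interval of the main value and 19 did not. Only the promoter difference could change sign, as the others are shares, and it stayed positive in every setting. Requiring 50% of the shorter peak to be shared, the gained share was 26.7%. In the stronger 50% of both lists the lost share was 42.9%, the gained share 24.5%, the promoter difference 3.69 points and the share of gained peaks on MYC-tag peaks 37.6%. With lists of equal length the lost share was 34.5%, the gained share 33.3% and the lost share of the top decile 1.20%. Above a total signal of 1800 in both lists these were 48.2%, 20.7% and 2.67%, with a promoter difference of 3.96 points and a MYC-tag share of 43.5%. With peaks within 500 bp merged the lost share was 43.1% and the MYC-tag share of gained peaks 21.1%. With starts of protein-coding transcripts only the promoter difference was 3.41 points, and averaged over the deciles of the no-DOX list, a setting chosen after the data were seen, it was 3.95 points. Without no-DOX replicate 2 the values were 49.2% lost, 22.6% gained, 2.10% lost in the top decile, 1.60 points and 19.5%. Word shares were higher in windows of 100 bp to each side in all 33 cases, and with control windows at 5 kb 29 of 33 excesses moved by less than the counting error, while the SOX excess in gained windows was -0.185 in place of 0.266 points and the GATA difference in lost windows 0.229 in place of -0.160. With 10 kb in place of 50 kb around listed genes 32 of 34 shares stayed inside their intervals, the exceptions being the gained shares of hair follicle stem cell factors, 14.5%, and of MLL3/4 complex genes, 12.5%. The causes were not tested.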
